A study of Mus musculus with 6 samples.

Results

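The genes followed here make hyaluronan (Has1, Has2 and Has3), bind it (Vcan, Hapln1, Tnfaip6 and Cd44) or cut it (Hyal1 and Hyal2), in cells sorted from the skin of newborn mice. They were taken from the count tables by Ensembl identifier, 9 of 37991 gene rows, and all 9 passed the filter on low counts.

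Hyaluronan is a long, unsulfated sugar chain of the extracellular matrix. It is spun out at the plasma membrane by the synthases of the genes Has1, Has2 and Has3, from the precursors UDP-glucuronic acid and UDP-N-acetylglucosamine. In the matrix, proteoglycans of the lectican family such as versican (Vcan) bind it, link proteins such as Hapln1 lock that bond, and the protein of Tnfaip6 (TSG-6) moves heavy chains of inter-alpha-trypsin inhibitor onto it. Cells bind it through CD44, and hyaluronidases, Hyal1 in lysosomes and Hyal2 mainly at the cell surface, cut it. Skin holds much hyaluronan, and loose, growing or wounded connective tissue is rich in hyaluronan and versican.

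The mutant mice (n = 3 libraries) carried the Nes-GFP reporter, the Nes-Cre recombinase and, beside a normal copy, 1 copy of Pdgfra with the change D842V. The labels write it PDGFRα+/[S]D842V. What "[S]" stands for is not given. The series title calls that receptor constitutively active and the sorted cells pericytes, which wrap small vessels. The control mice (n = 3 libraries) carried Nes-GFP, and their titles name neither Cre nor the allele. With Cre named only beside the allele, recombinase and allele cannot be told apart. All 6 libraries came from pups of 3 days. The dermis with its attached white fat was digested after a cold trypsin step, hair follicles were spun out and Nestin-GFP-positive cells were sorted, so the changed allele is expected only where Nes-Cre had been active, and the sort holds every cell type with an active reporter. In bulk RNA, fewer cells of a type and less RNA per cell cannot be told apart.

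Gene counts ran from 15110824 to 18792939 reads in mutant libraries and from 11912469 to 15839701 in control libraries. Levels are CPM, read counts scaled to a common library total, after scaling by the trimmed mean of M values (TMM), and a gene was called at an edgeR adjusted p under 0.05 over 15035 tested genes. That rule called 8.63% of tested genes up and 9.13% down in mutant cells. Pdgfra, the gene that carries the allele, had 357 ± 11.9 CPM in mutant and 843 ± 21 CPM in control libraries (SD, n = 3 each; log2 fold change -1.24, edgeR adjusted p = 2.76e-06). Nes, behind the sorting reporter, had 84.2 ± 13.5 and 74.3 ± 5.82 CPM (adjusted p = 0.28). The labels give the cell type as white adipose tissue. Of 8 adipocyte markers 7 were tested, 1 was called higher (Fabp4; 0 to 3 over the alternatives, 0 of them without mutant replicate 3, control replicate 1 or control replicate 2) and 0 lower, with sums of 263 to 578 CPM in mutant and 172 to 262 CPM in control libraries. Lep was at 0 to 0.0838 CPM, and Adipoq had 16.7, 61.7 and 9.28 CPM in mutant and 6.72, 5.28 and 14.96 CPM in control replicates 1 to 3. Markers of mural cells, with 2 of 10 higher (Kcnj8 and Abcc9), 0 lower and 6 of 10 log2 fold changes below 0, summed to between 1286 and 1720 CPM in mutant and between 1496 and 1946 CPM in control libraries. With the replicate block and without the robust option Rgs5 and Myh11 of that list were called lower, and Myh11 also with limma-voom. Cspg4 was called lower with no filter and without control replicate 3. Notch3 was called higher with no filter, with DESeq2 and without mutant replicate 2. Markers of fibroblasts summed to between 81883 and 97423 CPM in mutant and between 92723 and 105493 CPM in control libraries.

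Has2 and Vcan were the members called, and both fell. Has2, the main synthase transcript of these cells, was at 0.723 times its control level and Vcan at 0.777 times. The synthases Has1 and Has3, both hyaluronidases and Tnfaip6 were not called. Cd44 was higher and Hapln1 lower in every mutant library than in any control library, and neither was called. Counted by groups that do not overlap, 1 member was higher and 3 were lower (Has2, Vcan and Hapln1), where 19.2% of all tested genes were higher and 18.6% lower. Of the 9 members 0 were called higher and 2 lower, which is 22.2% beside the 9.13% lower among all tested genes. Their median log2 fold change was 0.01, as for all tested genes.

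Has2 (ENSMUSG00000022367, chromosome 15) had 66.0, 54.0 and 52.8 CPM in mutant replicates 1 to 3, against 74.4, 78.2 and 86.1 CPM in control replicates 1 to 3. All 3 mutant libraries lay below all 3 control libraries. Its log2 fold change was -0.47 (95% interval -0.68 to -0.26, SE 0.10, edgeR adjusted p = 0.00774). The call held in 13 of 13 alternatives, with adjusted p-values between 2.55e-06 and 0.0383. Has2os, an antisense transcript that shares 182 exonic bases with Has2, had 3.51 ± 0.0592 CPM in mutant and 4.40 ± 0.77 CPM in control libraries and was not called (adjusted p = 0.277). Whether the counting used strand is not stated, so reads of the shared bases cannot be assigned.

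Has1 (ENSMUSG00000003665, chromosome 17) had 24.4, 28.2 and 17.7 CPM in mutant libraries, against 26.0, 24.1 and 24.9 CPM in control libraries. Mutant replicate 2 lay above and mutant replicate 3 below every control library, so the groups overlapped (log2 fold change -0.10, 95% interval -0.43 to 0.23, edgeR adjusted p = 0.686). Without mutant replicate 3 the sign turned (0.07). Has3 (ENSMUSG00000031910, chromosome 8) was the scarcest synthase, with 10.5, 10.9 and 11.2 CPM in mutant libraries, against 7.87, 9.72 and 11.96 CPM in control libraries. The narrow mutant range fell inside the wide control range (log2 fold change 0.14, 95% interval -0.19 to 0.48, edgeR adjusted p = 0.561), and without control replicate 1 the sign turned (-0.01). Has3 shares 352 exonic bases with Chtf8, a gene on the opposite strand that had 80.2 ± 5.77 CPM in mutant and 89.2 ± 5.28 CPM in control libraries, so part of its reads is uncertain.

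**Figure D1:**
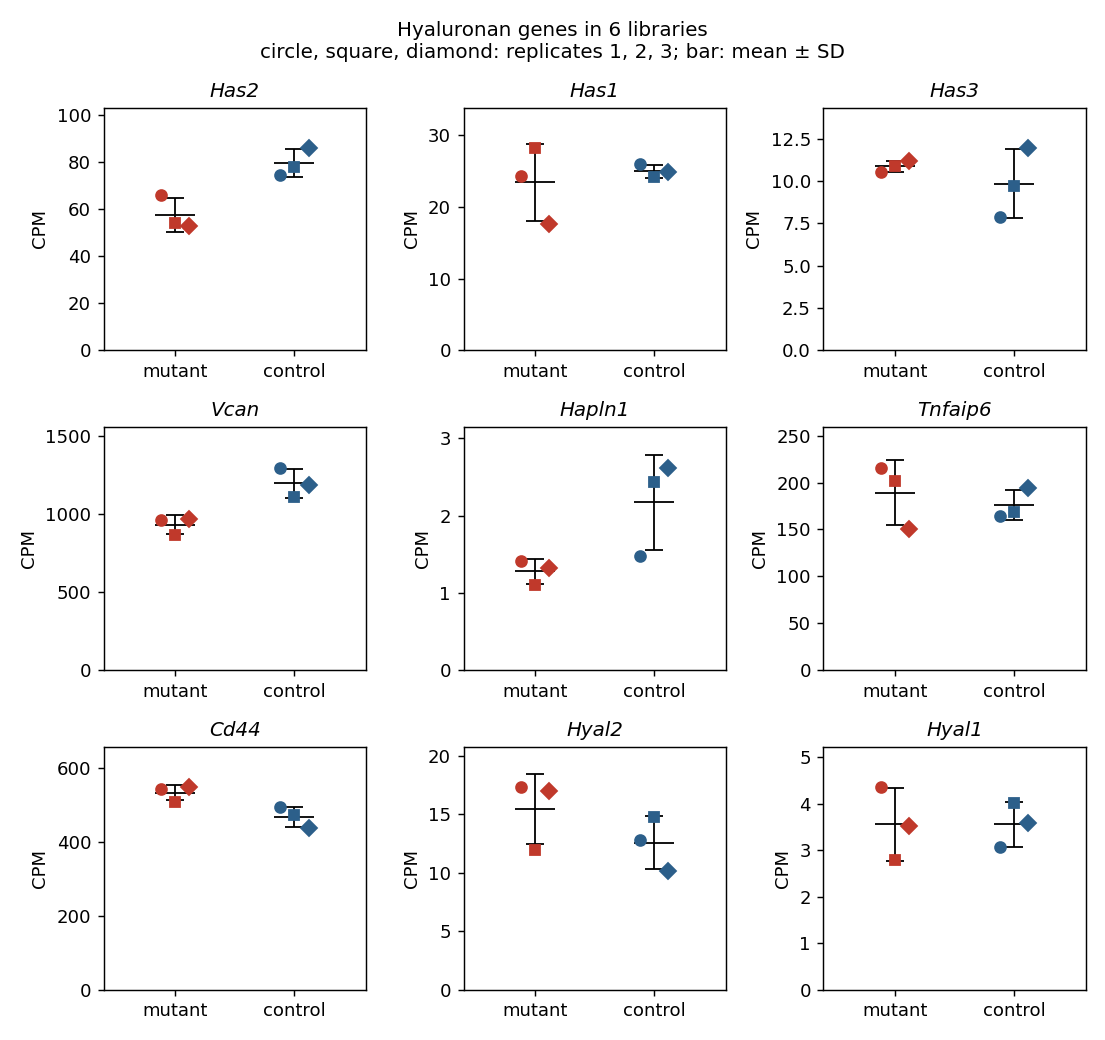
Level of each of the 9 hyaluronan genes in CPM (y axis, from 0) in 3 mutant and 3 control libraries (points), with mean ± SD. The groups do not overlap for Has2, Vcan and Hapln1, lower in mutant libraries, and for Cd44, higher in mutant libraries.

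Divided by exon length, so that genes can be set side by side, Has2 gave most of the synthase transcripts. The summed level of the 3 genes was 22.6, 20.7 and 18.1 CPM per kb in mutant libraries, against 24.6, 25.3 and 27.7 CPM per kb in control libraries. Every mutant sum was below every control sum, with means of 20.5 ± 2.26 and 25.9 ± 1.64 CPM per kb (SD, n = 3 each). Has2 made up 66.4 ± 4.18% of that sum in mutant and 72.6 ± 0.931% in control libraries. The shares of Has1 were 25.2 ± 4.46% and 21.5 ± 1.8%, and those of Has3 were 8.4 ± 1.2% and 5.94 ± 0.874%. Mutant replicate 2 stood lowest for Has2, at 61.6%, and highest for Has1, at 30.2%. Sums and shares were described without a test. The Has2 share differed by -6.22 percentage points between the groups, and by -3.80 without mutant replicate 2.

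**Figure D2:**
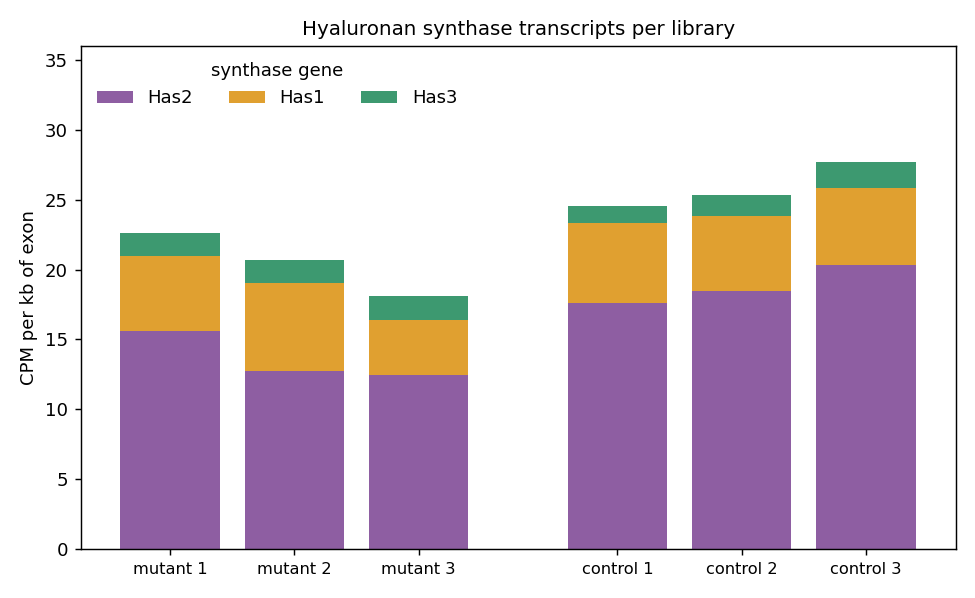
Summed level of Has2, Has1 and Has3 in CPM per kb of exon (y axis) in each of 3 mutant and 3 control libraries, stacked by gene. The mutant bars reach 18.1 to 22.6 and the control bars 24.6 to 27.7, and the Has2 segment is the tallest in every library.

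A ratio of 2 genes within a library does not depend on how libraries are scaled, and 4 such ratios, chosen after the values were seen, were compared. Has2 over Has3, per exon length, was 9.45, 7.46 and 7.11 in mutant libraries, against 14.3, 12.1 and 10.8 in control libraries. The groups did not overlap, with a log2 difference of -0.63 (exact permutation test, two-sided p = 0.1, adjusted over the 4 ratios 0.2). That p is the smallest that 3 against 3 libraries allow. Has2 over Has1 was 2.89, 2.04 and 3.19 in mutant libraries, against 3.06, 3.45 and 3.69 in control libraries, and the groups overlapped (log2 difference -0.35, exact permutation p = 0.2, adjusted 0.267). Without mutant replicate 2 that difference was -0.16.

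Vcan, a large proteoglycan that carries chondroitin sulfate chains and binds hyaluronan at its amino-terminal end, was the most abundant member in CPM. The gene (ENSMUSG00000021614, chromosome 13) had 963, 864 and 970 CPM in mutant libraries, against 1298, 1113 and 1185 CPM in control libraries. Every mutant library lay below every control library. The log2 fold change was -0.36 (95% interval -0.56 to -0.17, SE 0.09, edgeR adjusted p = 0.0167). Over 13 alternatives the adjusted p lay between 0.000364 and 0.0573, and the call was lost without mutant replicate 2 (log2 fold change -0.31, adjusted p = 0.0573). Counts per gene do not separate the splice forms of versican, which differ in their chondroitin sulfate regions.

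Aggrecan (Acan), the lectican of cartilage, fell too. It had 26.7, 13.9 and 19.2 CPM in mutant libraries, against 61.7, 49.8 and 43.4 CPM in control libraries. Mutant libraries were at 0.386 times the control level (log2 fold change -1.37, 95% interval -2.01 to -0.74, edgeR adjusted p = 0.0197). That call was lost with no filter on low counts (adjusted p = 0.0531), without mutant replicate 3 (0.1) or control replicate 2 (0.0538). Of 7 cartilage markers, Acan among them, 4 were tested, 0 rose and 2 fell, the other being Col2a1, the collagen of cartilage, whose call held in 7 of 13 alternatives. Falls numbered 0 without mutant replicate 3 or control replicate 2, and 1 without mutant replicate 1 or 2 or control replicate 3. With limma-voom and with no filter 1 fell, and without control replicate 1 there were 3 falls, with Sox9 added. Over all tested genes 8.63% were called higher and 9.13% lower. The markers summed to between 39.9 and 59.6 CPM in mutant and between 81.6 and 89.2 CPM in control libraries, and the defining genes Matn1 and Snorc had at most 1 read in any library.

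The promoters of these 2 lecticans, which both fell, are shown as RefSeq gives them for build GRCm38.p6, from 250 bases before to 50 bases after the annotated start, 5′ to 3′ on the gene's strand. The count files use mm9, so these coordinates belong to the RefSeq build alone. Capitals mark matches on either strand to 5 motifs. These are TATAAA, the TATA box, then CCAAT, the box of that name, then GGGCGG, the GC box, then TGANTCA, the AP-1 site, and last GGAATG, the TEAD site. In Acan the GC box matches overlap each other or the GGAATG match. Vcan lies at chr13:89742463-89742762 on the minus strand and Acan at chr7:79052976-79053275 on the plus strand.
Vcan: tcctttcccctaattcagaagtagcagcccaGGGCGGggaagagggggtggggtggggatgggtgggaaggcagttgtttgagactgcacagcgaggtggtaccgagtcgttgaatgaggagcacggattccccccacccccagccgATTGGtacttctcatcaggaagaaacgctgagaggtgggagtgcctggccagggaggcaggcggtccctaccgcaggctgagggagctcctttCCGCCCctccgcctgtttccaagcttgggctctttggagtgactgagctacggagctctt
Acan: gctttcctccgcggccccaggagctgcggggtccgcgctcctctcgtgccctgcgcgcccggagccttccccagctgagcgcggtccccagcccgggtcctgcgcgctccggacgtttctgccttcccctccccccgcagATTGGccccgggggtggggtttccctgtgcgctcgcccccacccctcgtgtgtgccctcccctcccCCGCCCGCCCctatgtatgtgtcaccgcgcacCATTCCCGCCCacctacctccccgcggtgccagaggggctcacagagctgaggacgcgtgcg

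Both windows held 1 CCAAT match on the reverse strand, which begins 103 bases before the start in Vcan and 110 bases before it in Acan. A CCAAT match was present in 37.4% of 32817 promoters of that length. Vcan held 2 and Acan 3 matches to GGGCGG, present in 35.6% of promoters. Acan alone of the pair held GGAATG, present in 14.7%. Neither window held TATAAA, found in 13.6% of promoters, or TGANTCA, found in 7.81%. Of the 9 members 7 had an entry, and Has2 and Has3 had none. Among those 7, TGANTCA was found for Tnfaip6 and for no other.

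Hapln1 (ENSMUSG00000021613), whose protein stabilises the bond between hyaluronan and a lectican, lies 43.7 kb from Vcan on chromosome 13 with 0 protein-coding genes between them in GENCODE M21. Its level was close to the lower limit of the data, with 21, 17 and 25 reads in mutant libraries, against 23, 29 and 41 reads in control libraries. That was 1.41, 1.104 and 1.32 CPM in mutant libraries, against 1.47, 2.43 and 2.62 CPM in control libraries, where a count of 0 allows up to 0.158 to 0.251 CPM. The groups did not overlap, although control replicate 1 came close to the mutant libraries. The log2 fold change was -0.76 (95% interval -1.39 to -0.12) and was not called (edgeR adjusted p = 0.0935). Without control replicate 1 it was -0.99 and called (adjusted p = 0.03). Hapln3, a link protein gene outside cartilage, had 12.7 ± 0.751 CPM in mutant and 16.5 ± 4.42 CPM in control libraries and was not called (edgeR adjusted p = 0.153), except without control replicate 2 (0.0202) and with no filter (0.0288). The other lecticans and link proteins, Bcan, Ncan, Hapln2 and Hapln4, were too low to test.

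Tnfaip6 (ENSMUSG00000053475, chromosome 2) had 216, 201 and 150.2 CPM in mutant libraries, against 165, 169 and 195 CPM in control libraries. Mutant replicates 1 and 2 were the highest of all libraries and mutant replicate 3 the lowest, so the groups overlapped. The log2 fold change was 0.10 (95% interval -0.19 to 0.40, edgeR adjusted p = 0.633), and without mutant replicate 1 its sign turned (-0.01). Per exon length it was the most abundant member, at 110.6 ± 20.2 CPM per kb in mutant and 103 ± 9.46 CPM per kb in control libraries. Itih5, an inter-alpha-trypsin inhibitor heavy chain gene, was higher still, at 238 ± 23.8 and 298 ± 16 CPM per kb. It fell, with 2041, 1923 and 1673 CPM in mutant libraries, against 2214, 2462 and 2382 CPM in control libraries (log2 fold change -0.32, edgeR adjusted p = 0.0368). Itih5 lost its call when either mutant replicate 2 or 3, or either control replicate 2 or 3, was left out (largest adjusted p = 0.171). Itih1 to Itih4 and Ambp were too low to test, and Ptx3, a pentraxin of the hyaluronan matrix, was not called (adjusted p = 0.701).

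Cd44 (ENSMUSG00000005087, chromosome 2), the main cell surface receptor, had 544, 509.7 and 549 CPM in mutant libraries, against 494, 473 and 439 CPM in control libraries. Every mutant library lay above every control library, as in 19.2% of tested genes. With a log2 fold change of 0.19 (95% interval 0.02 to 0.36), Cd44 had a raw p of 0.0339 and an edgeR adjusted p of 0.118, and was not called under any of 13 alternatives (adjusted p 0.0825 to 0.306). Per exon length the order of Vcan and Cd44 differed between the groups, while in CPM Vcan stood above Cd44 in every library. The order thus depends on the exon lengths used, 14462 bases for Vcan and 6776 for Cd44, over all annotated splice forms. Vcan over Cd44 was 0.829, 0.794 and 0.828 in mutant libraries, against 1.23, 1.103 and 1.26 in control libraries. The log2 difference was -0.55 (exact permutation test, two-sided p = 0.1, the smallest possible, adjusted over the 4 ratios 0.2). Since Vcan was lower and Cd44 higher in every mutant library, this separation and its p were fixed and add no evidence. Vcan over Has2 was 4.27, 4.68 and 5.38 in mutant libraries, against 5.11, 4.17 and 4.03 in control libraries, and the groups overlapped (exact permutation p = 0.5, adjusted 0.5).

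**Figure D3:**
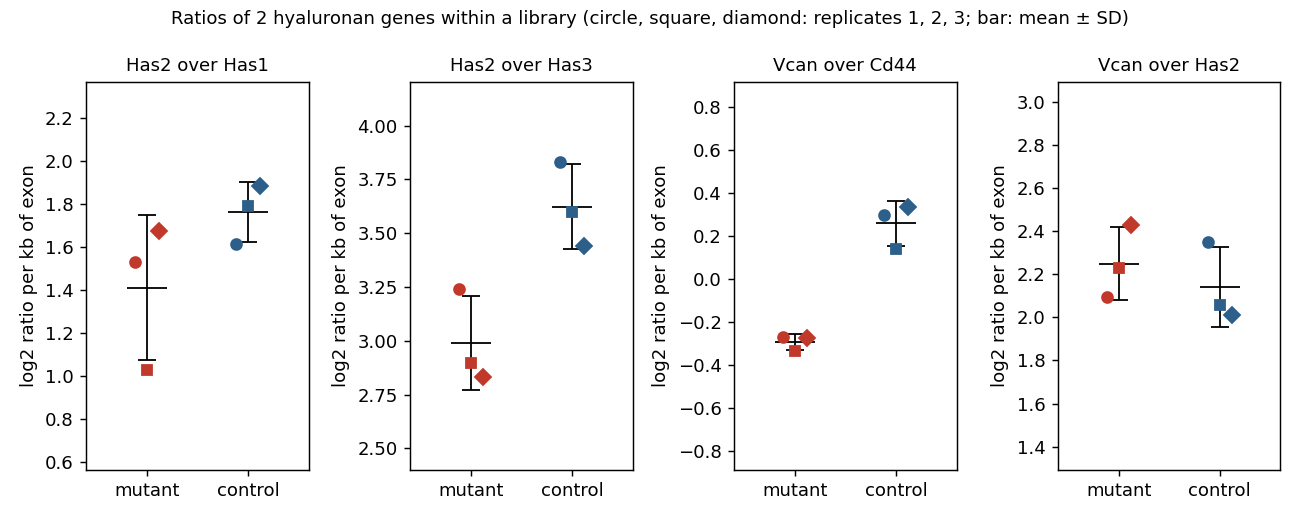
Log2 ratio of 2 hyaluronan genes per kb of exon within each library (y axes of equal span, points for 3 mutant and 3 control libraries, mean ± SD). Has2 over Has3 and Vcan over Cd44 do not overlap between groups, while Has2 over Has1 and Vcan over Has2 do. The separation of Vcan over Cd44 follows from the levels of Vcan and of Cd44.

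The hyaluronidases were scarce. Hyal2 (ENSMUSG00000010047, chromosome 9) had 17.3, 11.9 and 17.0 CPM in mutant libraries, against 12.8, 14.7 and 10.2 CPM in control libraries. Mutant replicate 2 lay among the control libraries and the other mutant libraries above them (log2 fold change 0.30, 95% interval -0.08 to 0.68, edgeR adjusted p = 0.249). Tusc2, a neighbour 1833 bases away on the same strand, fell (8.19 ± 1.06 CPM in mutant and 12.5 ± 1.61 CPM in control libraries, log2 fold change -0.60, adjusted p = 0.016), a call lost without mutant replicate 1 (0.053). Hyal1 (ENSMUSG00000010051), next to Hyal2, had 4.36, 2.79 and 3.53 CPM in mutant libraries, against 3.07, 4.02 and 3.58 CPM in control libraries. These ranges covered each other (log2 fold change 0.01, 95% interval -0.47 to 0.48, edgeR adjusted p = 0.988). Hyal1 shares 1920 of 3777 exonic bases with Naa80 and 159 with Hyal3 on the same strand, so its count is uncertain. Naa80 had 12.3 ± 1.25 CPM in mutant and 9.87 ± 0.933 CPM in control libraries and was not called (adjusted p = 0.117).

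Of 10 further genes of hyaluronan breakdown 6 were tested and 0 were called in either direction by edgeR. At an unadjusted p under 0.05 the number was also 0, and with DESeq2 it was 0. Over all tested genes 8.63% were called higher and 9.13% lower by edgeR. Hyal4, Hyal5, Hyal6 and Spam1, the last a sperm hyaluronidase, had 0 reads in all 6 libraries. Hexa, a lysosomal hexosaminidase subunit, had 63.9 ± 9.43 CPM in mutant and 70.6 ± 8.33 CPM in control libraries, and Gusb, the lysosomal glucuronidase, had 66.8 ± 1.12 and 63.7 ± 5.08 CPM (log2 fold changes -0.15 and 0.07). With 1 library left out these ran from -0.23 to -0.03, the value nearest 0 being without mutant replicate 2, and from 0.004 without control replicate 3 to 0.11.

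Per exon length the members took the order Tnfaip6, Cd44, Vcan, Has2, Has1, Hyal2, Has3, Hyal1 and Hapln1 in mutant libraries, by mean. Cd44 had 78.8 ± 3.14, Vcan 64.4 ± 4.1 and Has2 13.6 ± 1.73 CPM per kb. Has1, with 5.19 ± 1.19, and Hyal2, with 4.68 ± 0.911 CPM per kb, did not differ beyond their spread. Has3 followed with 1.70 ± 0.0517, Hyal1 with 0.943 ± 0.207 and Hapln1 with 0.216 ± 0.0264 CPM per kb. Hyal1 shares exonic bases with Naa80 and Hyal3, and Has3 with Chtf8, so the places of Has3 and Hyal1 are uncertain. In CPM, without exon length, Vcan stood first in both groups, so its place beside Cd44 depends on the lengths used. In control libraries Vcan stood before Cd44 and the rest kept their places. There, Vcan had 82.9 ± 6.45, Cd44 69.2 ± 4.07, Has2 18.8 ± 1.41 and Hapln1 0.368 ± 0.104 CPM per kb.

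Other genes of the pathway were taken from lists of 73 genes, of which 58 were tested, 7 rose and 11 fell. That is 12.1% and 19.0% of the tested ones, beside 8.63% and 9.13% of all tested genes, and their median log2 fold change was -0.04. Falls numbered 6 without mutant replicate 2 or control replicate 2, and 4 without mutant replicate 3 or control replicate 3. Over all tested genes falls dropped too, from 1372 to 1047 without mutant replicate 2 and 881 without control replicate 2. They dropped to 753 without mutant replicate 3 and 807 without control replicate 3. Among 10 genes of precursor synthesis 0 rose and 2 fell. Gfpt1, which commits fructose-6-phosphate to the hexosamine pathway, had 84.4 ± 3.92 CPM in mutant and 113 ± 9.2 CPM in control libraries (log2 fold change -0.43, edgeR adjusted p = 0.00487, called in 13 of 13 alternatives). Pgm3, a later enzyme of that pathway, had 24.1 ± 2.2 and 31.5 ± 1.76 CPM (log2 fold change -0.39, adjusted p = 0.0169). Pgm3 lost its call when mutant replicate 1 or 3, or control replicate 2 or 3, was left out (largest adjusted p = 0.0749). Ugdh, which makes UDP-glucuronic acid, was chosen after its values were seen. It had 120 ± 5.56 CPM in mutant and 106 ± 4.09 CPM in control libraries and was not called (log2 fold change 0.18, adjusted p = 0.0997).

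Among 7 other receptors 6 were tested, 2 rose and 1 fell. That is 33.3% and 16.7% of the tested ones, beside 8.63% and 9.13% of all tested genes. Lyve1, a receptor of lymphatic vessels and some macrophages, had 31.9, 42.1 and 44.2 CPM in mutant libraries, against 13.6, 10.98 and 17.3 CPM in control libraries. It was at 2.81 times the control level (log2 fold change 1.49, edgeR adjusted p = 0.0012). Stab1, a scavenger receptor of the same cell types, had 108.8, 99.7 and 135 CPM in mutant libraries, against 78.7, 72.6 and 73.8 CPM in control libraries (log2 fold change 0.61, adjusted p = 0.00353). Markers of endothelium moved with both, with 5 of 10 higher (3 without control replicate 3), 0 lower and sums of 224 to 328 CPM in mutant and 142 to 182 CPM in control libraries. The lymphatic markers Prox1 and Flt4 were not called. Of 10 macrophage markers 0 were called, and their sums were 283 to 349 CPM in mutant and 195.5 to 351 CPM in control libraries, the highest being control replicate 1. Without that library 5 of them were called higher (C1qa, C1qb, C1qc, Tyrobp and Fcer1g). The part of these cells in the rises was not tested. Hmmr, a hyaluronan-binding protein best known from dividing cells, fell, with 25.8 ± 1.96 CPM in mutant libraries, against 38.4 ± 4.03 CPM in control libraries (log2 fold change -0.57, adjusted p = 0.00314).

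Of 6 proteases that cleave versican 0 rose and 2 fell, which is 0% and 33.3%, beside 8.63% and 9.13% of all tested genes. Adamts4 had 142 ± 8.83 CPM in mutant and 198 ± 31.4 CPM in control libraries (log2 fold change -0.47, edgeR adjusted p = 0.0143), and Adamts9 had 121 ± 7.93 and 146 ± 2.87 CPM (-0.28, adjusted p = 0.0236). The call of Adamts4 was lost without control replicate 2 or 3 (largest adjusted p = 0.0671), and Adamts9 lost its own when mutant replicate 2 or 3, or control replicate 2 or 3, was left out (0.0926). Adamts15, chosen after its values were seen, had 155, 555 and 569 CPM in mutant libraries, against 82.4, 113 and 111 CPM in control libraries. All mutant libraries lay above all control libraries, but mutant replicate 1 was much nearer to them, and the gene was not called (log2 fold change 2.06, 95% interval 0.45 to 3.67, adjusted p = 0.0926). It was called without mutant replicate 1 (2.22e-05), with limma-voom (0.0138), with DESeq2 (0.00421) and without the robust option (0.00751). Adamts20 was not called (edgeR adjusted p = 0.576), except as higher with the replicate block (log2 fold change 0.30, adjusted p = 0.0328).

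Genes that build the chondroitin sulfate chains of versican and aggrecan moved both ways, with 4 higher and 3 lower of 18 tested. That is 22.2% and 16.7% of the tested ones, beside 8.63% and 9.13% of all tested genes. Chpf2 (log2 fold change 0.42), a chain polymerase, Xylt2 (0.34), a xylosyltransferase that starts the chain, and the 4-O-sulfotransferase Chst11 (0.57) rose. Xylt1, the other xylosyltransferase, fell, with 28.9 ± 2.82 CPM in mutant and 37.9 ± 2.22 CPM in control libraries (log2 fold change -0.39, edgeR adjusted p = 0.0151), a call lost without mutant replicate 1 (0.0502) and without control replicate 3 (0.059). Xylt2 had 69.5 ± 1.67 and 54.8 ± 1.93 CPM, with an adjusted p of 0.00862. Also called were Chst15, higher, and Chst3 and Chst12, lower, each in 9 or 10 of 13 alternatives. Among 8 partners of CD44, Msn (moesin), which ties it to actin, fell (336 ± 22.3 CPM in mutant and 426 ± 48.4 CPM in control libraries, log2 fold change -0.34, adjusted p = 0.0244), a call lost without mutant replicate 2 or 3 or control replicate 3 (largest adjusted p = 0.078). Mmp9, a protease that docks on CD44, rose (1.54 ± 0.32 and 0.748 ± 0.207 CPM, adjusted p = 0.0484), and its call held in 2 of 13 alternatives.

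**Figure D4:**
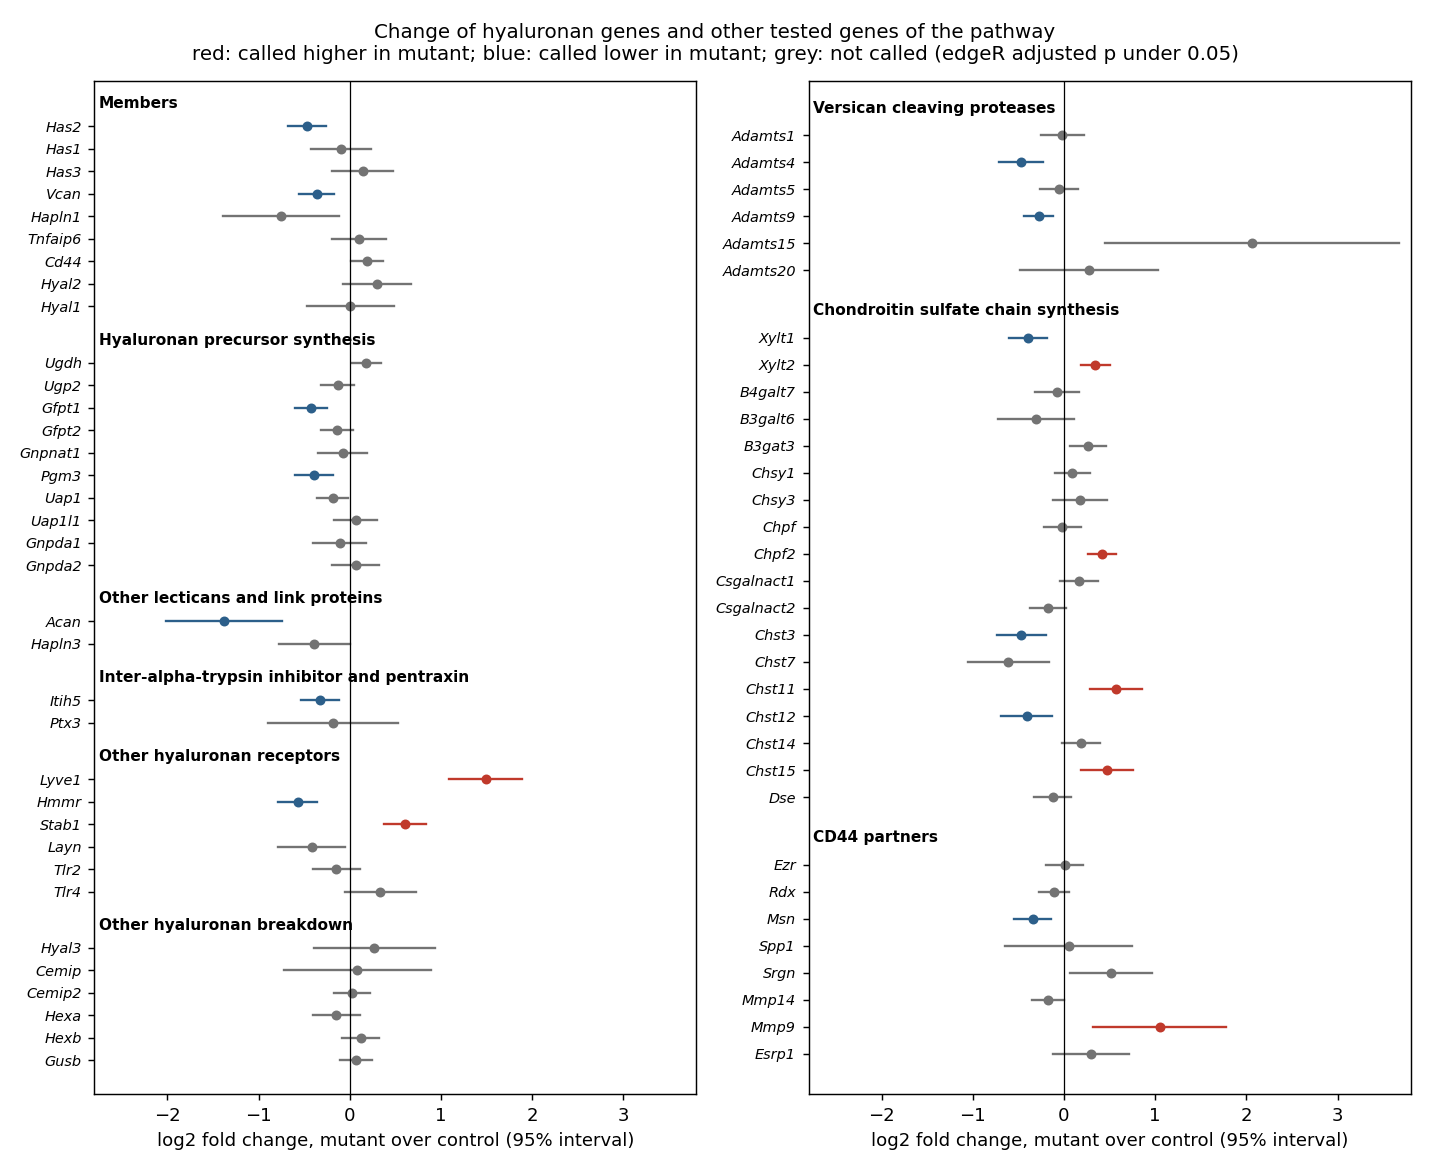
Log2 fold change of mutant over control cells with its 95% interval (x axis) for the 9 members and 58 other tested genes of the pathway. Called and below 0 are Has2, Vcan, Acan, Itih5, Gfpt1, Pgm3, Hmmr, Adamts4, Adamts9, Xylt1, Chst3, Chst12 and Msn. Called and above 0 are Lyve1, Stab1, Chpf2, Xylt2, Chst11, Chst15 and Mmp9.

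The genes most like Has2, Vcan and Cd44 were sought among 10886 genes of at least 5 CPM, by the root mean square difference of centred log2 CPM over the 6 libraries. Trappc13 (0.04) and Spdl1 (0.05), the second a mitotic spindle protein, were nearest to Has2. Tpm1, a tropomyosin (0.03), and Msn (0.04) were nearest to Vcan. Psmb2, a proteasome subunit (0.01), and Akr1a1, an aldehyde reductase (0.02), were nearest to Cd44.

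Marker lists of other cells and of cell state held called genes too. Their counts stand beside 8.63% of all tested genes called higher and 9.13% called lower. Of 9 dermal papilla and condensate markers, cells in which versican is abundant, 1 rose (Bmp3), 3 fell (Corin, Alpl and Hhip) and 5 of 9 log2 fold changes were above 0, with sums of 611 to 637 CPM in mutant and 525 to 613 CPM in control libraries. Rises numbered 3 without control replicate 1, with Lef1 and Prdm1 added, and 0 without mutant replicate 2 or control replicate 3. Keratinocyte markers summed to 948 to 1180 CPM in mutant and 508 to 793 CPM in control libraries, with 5 of 9 higher and 2 without mutant replicate 1, mutant replicate 3 or control replicate 3. Skeletal muscle markers summed to 185 to 289 CPM in mutant and 62.5 to 90.7 CPM in control libraries, with 9 of 10 higher and 5 without mutant replicate 2. Mast cell markers, with 3 higher and 1 lower of 5 tested (0 lower without mutant replicate 1 or control replicate 2 or 3), summed to 106 to 125 CPM in mutant and 79.6 to 97.6 CPM in control libraries. Mesothelial markers, with 1 tested and higher (Krt19, a call lost in several alternatives, among them those without mutant replicate 1 or 3 or control replicate 2 or 3), summed to 1.49 to 2.75 CPM in mutant and 0.831 to 1.09 CPM in control libraries. Fibroblast markers had 1 higher (Clec3b) and 2 lower (Dpp4 and Pdgfra, the gene that carries the allele) of 9. Of that list 4 were lower without mutant replicate 1, with no filter and with DESeq2, with Col1a1 and Lum added. With library totals alone and with the replicate block 3 were lower, with Lum added. In turn 2 were higher without control replicate 2, with no filter, with limma-voom and with DESeq2, with Pi16 added. Of 14 genes of dissociation and stress 1 rose (Jun) and 3 fell (Hspa1a, Hspa1b and Icam1), and their sums were 11420 to 12900 CPM in mutant and 6269 to 10256 CPM in control libraries, the lowest being control replicate 1. Without that library 4 rose, with Fos, Ier2 and Zfp36 added, and 5 fell, with Ier3 and Dnajb1 added. The part of these shifts in the falls of Has2 and Vcan was not tested.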

How the data were processed

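RNA was measured by sequencing in 6 libraries, 3 per genotype, numbered as in their titles. The deposited tables number the mutant libraries 2 to 4, and the titles 1 to 3. The authors deposited whole-number read counts per gene, 1 table per library. The submitters' processing notes name build mm9, TopHat2 2.0.4, HTSeq 0.5.3, cutadapt 1.1, FastQC and DESeq2, and state no order or settings. Whether counting used strand is not stated. Of the rows, 5 name no gene and stayed out (36.9% to 41.7% of reads). Symbols were matched by identifier for 32919 of 37991 gene rows. Symbols, exon lengths (the union of annotated exons) and overlaps came from GENCODE M21 (GRCm38), so levels per exon length are approximate.

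TMM scaling was applied, low genes were removed by filterByExpr (minimum count 10, minimum total 15), and the rest were tested with the quasi-likelihood F test of edgeR 4.0.16 in R 4.3.3, robust, group as the only term, with Benjamini-Hochberg adjustment over 15035 genes. Intervals are at 95%. The test was checked on simulated data. Alternatives used limma 3.58.1 (voom), DESeq2 1.42.0, other scalings, no filter, a replicate block and each library left out. Their use on ratios, pathway lists and marker lists was added after the data were seen. Pairs of libraries of a group differed by more than sampling noise (chi-square per degree of freedom 4.73 to 13.3). A count of 0 allows up to 3 reads, and such limits cover counting error only.

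Members and lists were chosen with earlier results of these data known. Named genes were the members, Pdgfra, Pdgfrb, Nes, genes within 5000 bases of a member, up to 4 called genes of each list by adjusted p (or its 2 most abundant) and 2 genes most like each of Has2, Vcan and Cd44. Ugdh, Ptx3, Hapln3, Adamts15, Adamts20, Chst15, Chst3 and Chst12 fall outside that rule and were chosen after their values were seen. The same holds for genes of lists too low to test, genes of marker lists named beside counts and the adipocyte list. Pdgfrb had 228 ± 10.3 CPM in mutant and 238 ± 21.2 CPM in control libraries. A further marker list is not reported here.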

Additional observations from a re-analysis of the deposited data

How the results depend on the processing

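Of 117 values of the 9 members under 13 alternatives each, 106 kept their direction and their side of the threshold. With 1 library left out, log2 fold changes ran from -0.585 to -0.407 for Has2, -0.42 to -0.31 for Vcan, -0.99 to -0.59 for Hapln1, 0.14 to 0.22 for Cd44, -0.26 to 0.0746 for Has1, -0.0117 to 0.31 for Has3, -0.17 to 0.15 for Hyal1, 0.17 to 0.45 for Hyal2 and -0.0122 to 0.245 for Tnfaip6. Hyal1, near 0, also turned sign with no filter (-0.000453), the replicate block (-0.000788), limma-voom (-0.00359) and DESeq2 (-0.00497). The cause was not tested. Over all genes, calls with 1 library left out ran from 658 to 1199 higher and from 753 to 1500 lower, with 658 and 753 without mutant replicate 3, 776 and 881 without control replicate 2 and 679 and 807 without control replicate 3, and among other pathway genes from 5 to 6 higher and from 4 to 10 lower. Fits with fewer libraries have fewer degrees of freedom. The log2 ratio of summed synthase levels (-0.336) ran from -0.413 to -0.255, and by CPM without exon length and by library totals it moved by less than the spread between replicates. Without exon length the Has3 share differed by 3.39 points, against 2.47 with it. By the numbers in the titles, deviations of same-numbered libraries from their group mean had correlations of 0.117, -0.0293 and -0.0866 for numbers 1 to 3. With 3 libraries per group such values cannot show whether the numbers mark a pairing. Mutant replicate 2 correlated best with control replicate 3 (0.158). By the numbers of the deposited tables those 2 share a number, while mutant replicate 1 shares one with control replicate 2 (-0.0574) and the remaining libraries share none. With the replicate block, by title numbers, 1329 genes were higher and 1439 lower, and the 2 calls among members were kept. Hapln1 had the fewest reads of the 9 members, 17 to 41 per library.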
